A study of Mus musculus with 6 samples.

Results

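Egln3 and 9 other genes of the oxygen-sensing pathway were followed in mouse skeletal muscle, and Egln3 was the one gene of the set whose transcript differed widely between the genotypes. The set was defined by gene symbol: Egln3, Egln1, Egln2, Hif1a, Hif3a, Epas1, Vhl, Vegfa, Car9 and Ankrd37. All 10 were found among the 17034 genes with values in the deposited count table, all 10 passed the filter on low counts, and 0 of them had a fractional value in any library. The set was put together with the genotype differences of these libraries known. The differences of the 10 genes are therefore given as a description. Whether the fit across all genes called them is stated, without a p-value and as support for nothing. Tested results are those of the pathway genes around them, whose lists were also chosen with earlier results of these data known.

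Polyadenylated RNA came from the gastrocnemius, a mixed calf muscle, of male mice aged 8 weeks, with 3 libraries per genotype. The libraries labelled TRa_mKO came from mice homozygous for a floxed Thra allele (Thrafl/fl), the gene of thyroid hormone receptor alpha, that also carried a Myf5-Cre transgene, which is active from embryonic myogenesis. The WT littermates were also Thrafl/fl and had no Cre. No group carried Cre without the floxed alleles, so effects of Cre itself and of the deletion cannot be told apart. Total counts lay between 12390527 and 14488500 per library. Thra was not lower in the libraries labelled TRa_mKO (89.5 ± 9.46 CPM in WT and 116 ± 14.0 CPM in TRa_mKO, SD, n = 3 each), and a gene-level count does not show which exons were lost, so every direction rests on the labels. The values of Thra were also not all whole, so its reads may be shared with other features. CPM are read counts scaled to a common library size, with TMM as a composition factor for each library. Hr, a known thyroid hormone target, fell from 83.4 ± 6.36 to 7.79 ± 1.15 CPM (edgeR adjusted p = 7.88e-07). Muscle fibre markers were abundant, with sums of 117386 to 162978 CPM. Haemoglobin and other erythroid transcripts had their highest sums in WT replicate 1 (1763 CPM) and TRa_mKO replicate 3 (1621 CPM), and the remaining sums were 458 to 917 CPM.

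Cells sense oxygen through prolyl hydroxylases, enzymes that need oxygen to modify the alpha subunits of hypoxia-inducible factor (HIF). The modified subunit is bound by the VHL ubiquitin ligase and degraded. When oxygen is scarce, the subunit persists, pairs with ARNT and activates genes of glucose use, vessel growth and pH control. Egln1, Egln2 and Egln3 encode the prolyl hydroxylases PHD2, PHD1 and PHD3. Egln1 and Egln3 are themselves HIF targets, and Egln3 is known for its expression in heart and skeletal muscle. Because HIF activity is set mostly by protein stability, transcripts of Hif1a or Epas1 do not measure it.

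HIF binds DNA at the core letters ACGTG or GCGTG, and the 250 bases before the start of a gene were searched for them on both strands, counting overlapping matches separately. The windows are from the RefSeq table of build GRCm38.p6, which held 9 of the 10 genes and not Epas1. Of these, 4 are shown because they set Egln3 beside its paralogue Egln1 and beside 2 HIF targets, all 3 with genotypes that overlapped. The Egln3 window (chr12:54203875-54204124, minus strand) held 1 match, the Egln1 window (chr8:124949255-124949504, minus strand) 2, the Car9 window (chr4:43506776-43507025, plus strand) 1 and the Ankrd37 window (chr8:45999851-46000100, minus strand) 4. Capitals mark the matches, 5′ to 3′ on the gene's strand.
Egln3: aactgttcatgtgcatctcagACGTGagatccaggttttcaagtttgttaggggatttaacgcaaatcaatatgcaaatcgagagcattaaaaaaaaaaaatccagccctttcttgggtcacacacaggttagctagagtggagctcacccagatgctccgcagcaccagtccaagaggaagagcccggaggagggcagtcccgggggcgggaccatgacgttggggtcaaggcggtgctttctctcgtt
Egln1: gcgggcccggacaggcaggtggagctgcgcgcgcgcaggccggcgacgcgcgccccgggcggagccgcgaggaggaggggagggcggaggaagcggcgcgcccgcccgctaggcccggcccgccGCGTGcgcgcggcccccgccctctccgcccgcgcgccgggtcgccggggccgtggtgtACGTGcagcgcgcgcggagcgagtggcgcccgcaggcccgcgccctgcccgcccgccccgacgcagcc
Car9: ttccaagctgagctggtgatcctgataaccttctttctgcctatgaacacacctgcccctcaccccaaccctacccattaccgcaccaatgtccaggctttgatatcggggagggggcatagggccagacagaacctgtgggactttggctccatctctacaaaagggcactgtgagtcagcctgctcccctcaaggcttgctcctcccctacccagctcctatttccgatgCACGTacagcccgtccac
Ankrd37: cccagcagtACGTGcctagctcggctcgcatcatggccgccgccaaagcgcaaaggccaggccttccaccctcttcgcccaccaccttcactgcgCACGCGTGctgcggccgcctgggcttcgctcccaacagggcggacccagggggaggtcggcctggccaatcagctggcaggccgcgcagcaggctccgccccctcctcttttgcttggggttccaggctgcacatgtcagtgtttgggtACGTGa

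The match in Egln3 began 229 bases before the start, far from the start compared with the match 18 bases before it in Car9 and the nearest of the 4 matches in Ankrd37, at 6 bases. Matches to these short letters are common. They were present in 38.6% of all 32851 windows of the table and in 56.0% of the first windows of the 10418 tested genes found there. Of the first windows of the set, 7 of 9 held a match, all but Vhl and Vegfa, and of those of the HIF target lists described below, 30 of 40 did. The thyroid hormone receptor hexamer AGGTCA, searched on both strands, was absent from the Egln3 window and present in 1 of 9 windows, that of Hif1a, against 10.5% of the tested genes. Other spellings of the hexamer were not searched. GGGTCA, which differs in the first letter, occurs unmarked in the printed Egln3 window, and its share over other windows was not measured.

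Egln3 (gene ID 112407) stood at 37.7, 29.1 and 32.4 CPM in WT, whereas the TRa_mKO replicates had 10.5, 11.1 and 9.41 CPM. All WT libraries lay far above all TRa_mKO libraries, and within each genotype the values were close together. The deposited counts behind these values were 376 to 504 in WT and 136 to 143 in TRa_mKO. The log2 fold change, TRa_mKO over WT, was -1.68 (SE 0.12, 95% confidence interval -1.96 to -1.41), which is a level 3.21-fold higher in WT. Egln3 was among the 216 genes that edgeR called lower at an adjusted p below 0.05, 1.65% of the 13118 tested, and 23 of these had a more negative log2 fold change.

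**Figure D1:**
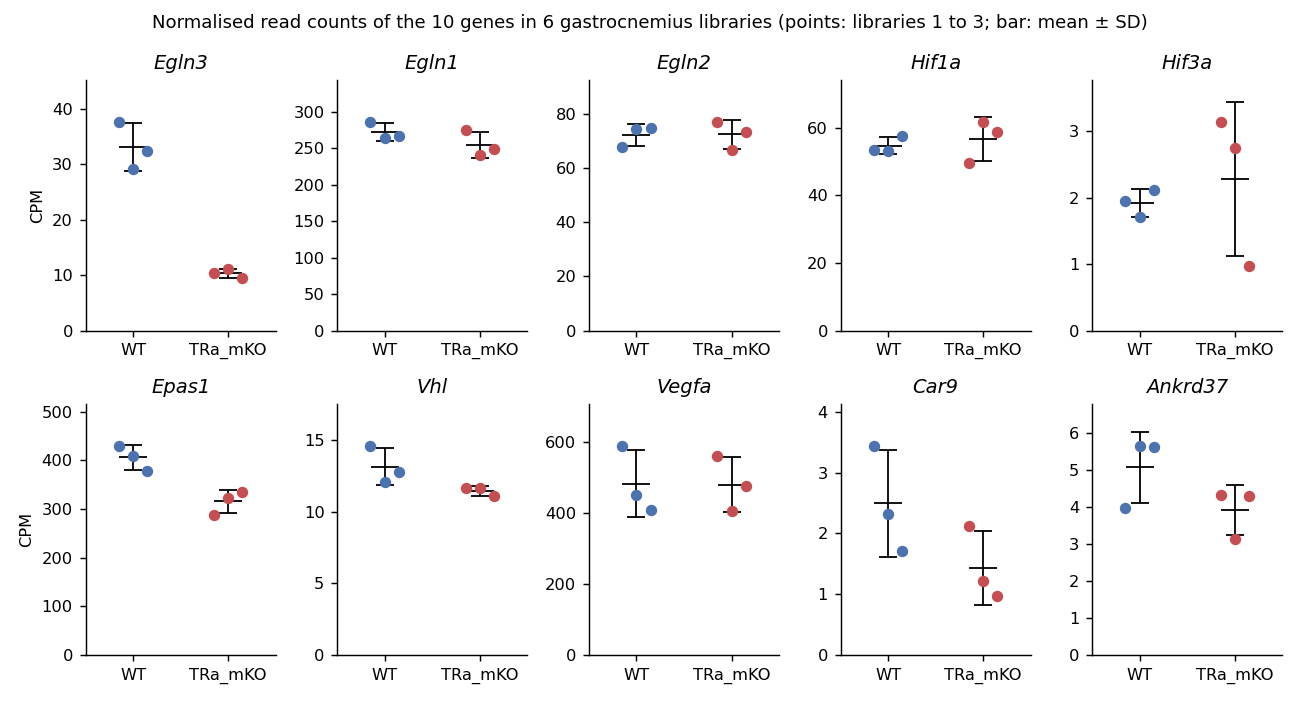
Normalised read count (CPM, linear axis from 0, a separate scale for each gene) of the 10 genes in the 3 WT libraries (blue) and the 3 libraries labelled TRa_mKO (red), with the mean and SD. Egln3 lies between 29.1 and 37.7 CPM in WT and between 9.41 and 11.1 CPM in TRa_mKO, while the groups overlap for 7 of the 10 genes.

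The other prolyl hydroxylases did not share this difference. Egln1, the main oxygen sensor of most cells, stood at 287, 265 and 267 CPM in WT, and the TRa_mKO values were 275, 241 and 250 CPM. Its log2 fold change was -0.10 (SE 0.10, 95% confidence interval -0.31 to 0.12), and the genotypes overlapped. For Egln2, the third family member, WT had 67.7, 74.4 and 74.9 CPM, with 77.3, 66.9 and 73.3 CPM in TRa_mKO. Its log2 fold change was 0.00 (0.0028 before rounding, SE 0.09), with an interval from -0.20 to 0.20 and a sign that turned under 7 of 15 other settings. Both intervals end short of the Egln3 estimate. This is a description and no test, since the set was chosen with these differences known.

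Levels of different genes can be compared once counts are divided by transcript length. On this scale (CPM per kb of the longest GENCODE transcript) Egln1 was the most abundant prolyl hydroxylase in each library, followed by Egln2 and then Egln3. Egln3 made up 10.1% ± 1.06 of the transcripts of the 3 enzymes in WT and 3.56% ± 0.415 in TRa_mKO (SD, n = 3 each). Their summed level was 123 ± 3.14 CPM per kb in WT and 109 ± 7.16 CPM per kb in TRa_mKO. Most of the prolyl hydroxylase mRNA of this muscle thus came from the 2 genes whose groups overlapped.

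**Figure D2:**
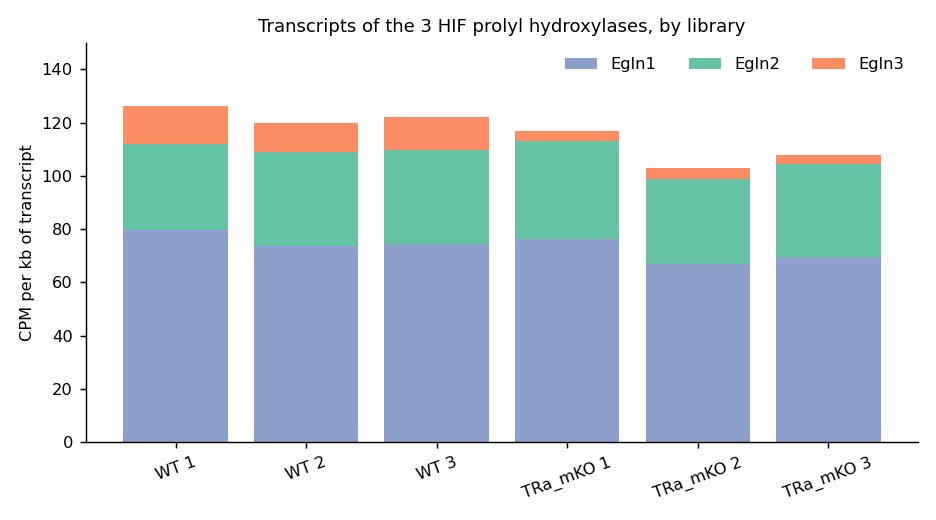
Stacked CPM per kb of transcript for Egln1, Egln2 and Egln3 in each library. Egln3 forms 9.12% to 11.2% of the bar in WT and 3.28% to 4.04% in TRa_mKO, and Egln1 with Egln2 forms the rest.

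The HIF alpha genes are the substrates of these enzymes. Hif1a stood at 53.4, 53.1 and 57.5 CPM in WT, and TRa_mKO had 49.5, 61.8 and 58.7 CPM, so that the TRa_mKO libraries lay on both sides of WT (log2 fold change 0.05, SE 0.10, 95% confidence interval -0.17 to 0.27). Epas1, which encodes HIF-2 alpha and is known for its expression in endothelium, stood at 430, 409 and 379 CPM in WT, against TRa_mKO values of 289, 323 and 335 CPM. All its WT libraries lay above all its TRa_mKO libraries, by a small step (log2 fold change -0.36, SE 0.10, 95% confidence interval -0.60 to -0.13). Epas1 was not among the genes called by edgeR. It was called lower in 1 of the 15 other settings, the DESeq2 test.

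The summed markers of endothelial cells, in which Epas1 is known to be expressed, overlapped between the genotypes. Their summed level was 1191 to 1460 CPM in WT and 917 to 1257 CPM in TRa_mKO, and 0 of 10 were at 0. A negative log2 fold change was found for 8 of 10 (median -0.25), and edgeR called 0 of 10, against 4.17% of all tested genes. At an unadjusted edgeR p under 0.05, 4 were lower and 0 higher, and DESeq2 called 1 lower. The share of all tested genes under that unadjusted p was not measured, and DESeq2 called 763 genes in all. No decline of the endothelial markers is therefore read from these counts. For 2 of 10 all WT libraries lay above, as for 10.1% of the tested genes. In bulk RNA, fewer cells of a type and less RNA per cell cannot be told apart. Set against the endothelial sum, Epas1 stood at 0.294 to 0.318 in WT and at 0.266 to 0.315 in TRa_mKO, and these ranges overlap. The lowest value was that of TRa_mKO replicate 3. The part of endothelial cells in the Epas1 difference was not tested.

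Hif3a, whose product includes forms that restrain the other HIFs, was close to the limit of detection with 22 to 32 counts in WT and 14 to 43 in TRa_mKO. Its WT values were 1.95, 1.70 and 2.11 CPM and its TRa_mKO values 3.15, 2.74 and 0.969 CPM, and TRa_mKO replicate 3 stood below all others while replicates 1 and 2 stood above. The interval of its log2 fold change was wide (0.23, -0.61 to 1.08), and at this depth a moderate difference was not detectable. The estimate was -0.08 without TRa_mKO replicate 1 and 0.61 without TRa_mKO replicate 3. Vhl, the substrate receptor of the ubiquitin ligase, stood at 14.6, 12.1 and 12.7 CPM in WT, while TRa_mKO had 11.6, 11.6 and 11.1 CPM. The WT libraries all lay above, by a gap smaller than the spread within WT (log2 fold change -0.20, SE 0.12, 95% confidence interval -0.46 to 0.06).

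The 3 other members are known HIF targets, and none of them stood apart between the genotypes. Vegfa, the vessel growth factor, was the most abundant gene of the set per kb. Its WT values were 590, 452 and 408 CPM and its TRa_mKO values 561, 405 and 476 CPM, and the groups overlapped (log2 fold change -0.01, SE 0.16, 95% confidence interval -0.37 to 0.35). Ankrd37, an ankyrin repeat gene induced by hypoxia, stood at 3.97, 5.65 and 5.61 CPM in WT. TRa_mKO had 4.32, 3.15 and 4.29 CPM, and WT replicate 1 fell among these (log2 fold change -0.37, SE 0.21, 95% confidence interval -0.83 to 0.10).

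Car9, a membrane carbonic anhydrase used as a hypoxia marker in tumours, had 26 to 46 counts in WT and 14 to 29 in TRa_mKO. Its WT values were 3.44, 2.32 and 1.72 CPM and its TRa_mKO values 2.12, 1.21 and 0.969 CPM. WT replicate 1 and TRa_mKO replicate 1 were the highest of their groups, and the groups overlapped (log2 fold change -0.79, SE 0.36, 95% confidence interval -1.59 to 0.02). With 1 library left out, its log2 fold change lay between -1.19 (without TRa_mKO replicate 1) and -0.49 (without WT replicate 1), and it was -0.26 without the pair of libraries with the highest erythroid sums.

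Across the set, edgeR called 1 gene lower and 0 higher, with 1.65% and 2.52% of all tested genes called in these directions. The genotypes did not overlap for 3 of the 10 genes (Egln3, Epas1 and Vhl), each with WT above, as was so for 10.1% of the tested genes, and for 0 of the 10 genes was TRa_mKO above, as it was for 13.2%. Since the set was chosen with these differences known, nothing is read from those counts. The median log2 fold change of the 9 genes besides Egln3 was -0.10, and that of all tested genes was 0.00 (-0.000329 before rounding).

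**Figure D3:**
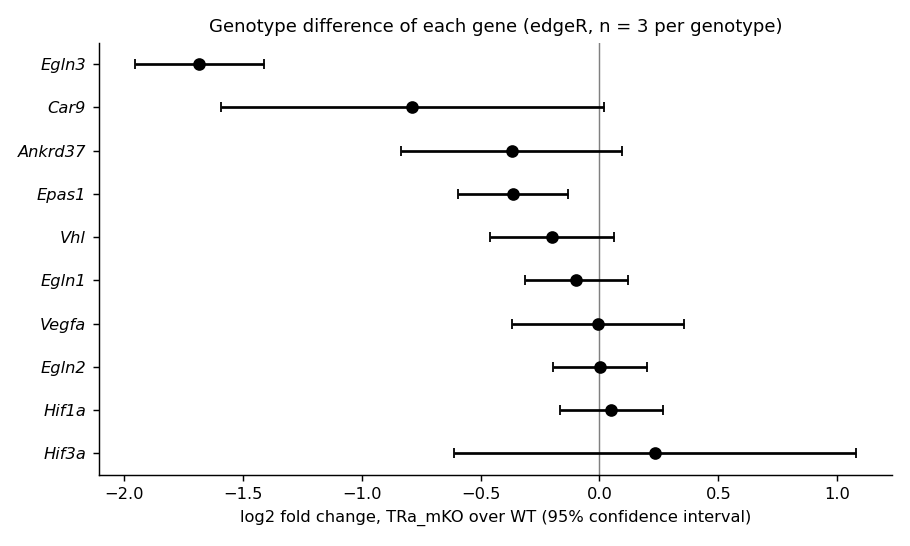
Log2 fold change of TRa_mKO over WT with its 95% confidence interval for each of the 10 genes, from the fit across all genes, n = 3 per genotype. The interval of Egln3 ends at -1.41, the next lowest estimate is -0.79 for Car9, and the other 8 estimates lie between -0.37 and 0.23.

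The order of levels per kb in WT ran from Vegfa (140.1 ± 27.6 CPM per kb, SD, n = 3) over Egln1 (75.9 ± 3.38) and Epas1 (73.6 ± 4.62) to Egln2 (34.3 ± 1.91). Below these stood Egln3 (12.4 ± 1.63), Hif1a (11.6 ± 0.516), Ankrd37 (5.48 ± 1.04), Vhl (4.71 ± 0.467), Car9 (1.23 ± 0.433) and Hif3a (0.300 ± 0.0321). The neighbours Egln1 and Epas1, Egln3 and Hif1a, and Ankrd37 and Vhl did not differ beyond their spread. In TRa_mKO, Egln3 (3.87 ± 0.313) had left Hif1a (12.0 ± 1.35) and its libraries overlapped those of Vhl (4.10 ± 0.116) and Ankrd37 (4.23 ± 0.721).

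Genes whose libraries were most like those of Egln3 were ranked by the root mean square difference of their log2 CPM over the 6 libraries, each gene centred on its own WT mean. Among 12009 genes, the nearest were Kcnc1, a potassium channel gene (0.21), Phlda3 (0.26), Fgd3 (0.28), Abcb4, a phospholipid transporter gene (0.30), and Rnf157 (0.31). Kcnc1 measured 62.4 ± 7.96 CPM in WT and 23.3 ± 4.32 CPM in TRa_mKO, and Phlda3 197 ± 33.3 and 54.5 ± 9.40 CPM. All 5 were called lower, which the ranking by an Egln3 profile favours, and Fgd3 lost its call when WT replicate 3 or TRa_mKO replicate 2 was omitted (adjusted p = 0.0626 and 0.0570), or the pair of libraries with the highest erythroid sums (0.105). Of the other hypoxia genes, Car9 came nearest at rank 158 (0.74), then Epas1 at 676 and Ankrd37 at 1010. Hif1a stood at 7074 and Hif3a at 9676.

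**Figure D4:**
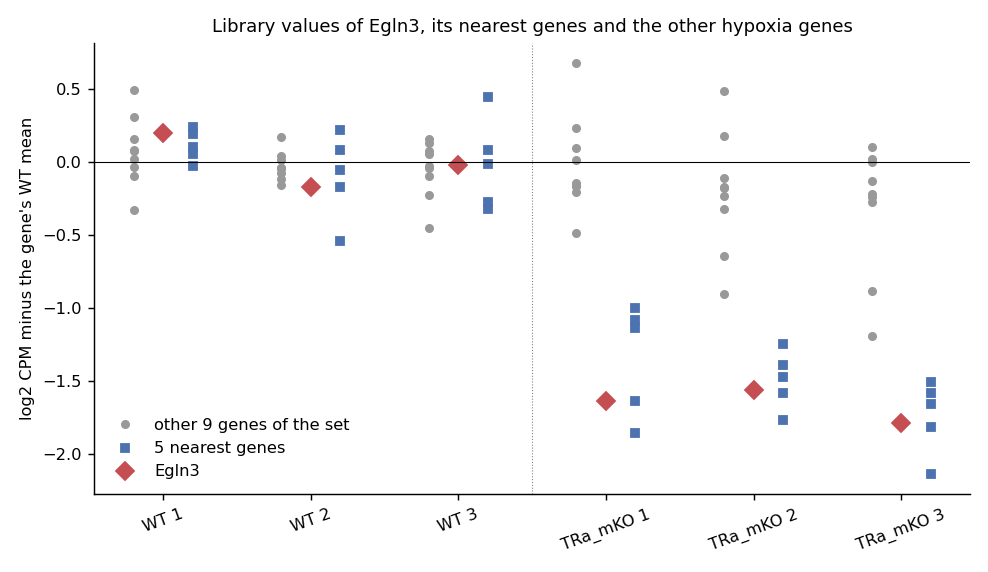
Log2 CPM minus the WT mean of each gene, by library, for Egln3 (red diamonds), its 5 nearest genes (blue squares) and the other 9 hypoxia genes (grey circles). In TRa_mKO, Egln3 lies between -1.79 and -1.56, and of the grey points Car9 in replicate 3 is lowest at -1.19.

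The wider pathway was read from gene lists that leave out the 10 genes, and here each gene was tested. The lists too were chosen with earlier results of these data known. Their shares of called genes are therefore set beside that of all tested genes as a description. Of 54 further genes known as HIF targets, 51 were tested, and 3 rose and 3 fell in TRa_mKO. That is 11.8% called, against 4.17% of all tested genes, split evenly between the directions, with a median log2 fold change of -0.16. In all, 18 members had a positive and 33 a negative log2 fold change. The list as a whole thus showed calls in both directions, and its lowest log2 fold change was -1.08. Egln3 had rank 32 from the lowest among all 13118 tested genes. Few genes of any kind lie below it, so nothing is read from its distance to the list.

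Among the 32 tested targets outside glucose metabolism, 1 rose and 1 fell (median -0.04, Car12 and Epo not tested), which is 6.25% called against 4.17% of all tested genes. Vldlr, the very low density lipoprotein receptor, fell from 327 ± 22.1 to 154 ± 10.1 CPM (log2 fold change -1.08, SE 0.10, edgeR adjusted p = 0.000446). The WT libraries had 305, 349 and 325 CPM and the TRa_mKO libraries 153, 164 and 144 CPM, with no overlap. Angptl4, a secreted inhibitor of lipoprotein lipase that is also a PPAR target, rose from 2.90 ± 0.766 to 10.8 ± 5.16 CPM (log2 fold change 1.90, SE 0.38, edgeR adjusted p = 0.0382). The TRa_mKO libraries were widely spread at 5.93, 10.2 and 16.2 CPM. The Angptl4 call ended without any 1 of the WT libraries or TRa_mKO replicate 2 (adjusted p = 0.0722, 0.129, 0.120 and 0.112). It also ended in limma-voom (0.0938), with library size only (0.0541) and with no filter (0.0675).

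Bnip3, a mitophagy receptor and one of the textbook HIF targets, measured 366 ± 12.5 CPM in WT and 472 ± 18.5 CPM in TRa_mKO and did not pass (edgeR adjusted p = 0.0635). DESeq2 called it (adjusted p = 0.00308). Edn1, the vasoconstrictor endothelin, measured 8.03 ± 1.68 and 4.65 ± 1.05 CPM (edgeR adjusted p = 0.0801), and DESeq2 called it as well (adjusted p = 0.0397). Pdgfb measured 86.9 ± 7.31 and 67.3 ± 7.38 CPM (adjusted p = 0.0881), and Wsb1 63.8 ± 5.25 and 83.3 ± 11.3 CPM (adjusted p = 0.0942).

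Of the 19 tested targets in glucose metabolism, 2 rose and 2 fell (median -0.17, Aldoc not tested), which is 21.1% called against 4.17% of all tested genes. Pdk1, a kinase that shuts pyruvate out of the citric acid cycle, rose from 47.4 ± 1.89 to 74.2 ± 6.73 CPM (log2 fold change 0.65, SE 0.09, edgeR adjusted p = 0.00414). Pfkfb4, which makes an activator of phosphofructokinase, fell from 76.3 ± 7.44 to 46.6 ± 5.23 CPM (log2 fold change -0.71, SE 0.11, edgeR adjusted p = 0.00653). Ak4, a mitochondrial adenylate kinase whose reads may be shared with other features, rose from 6.40 ± 0.810 to 11.0 ± 1.19 CPM (edgeR adjusted p = 0.0185). Slc2a3, the glucose transporter GLUT3, fell from 8.49 ± 2.37 to 4.30 ± 0.801 CPM (edgeR adjusted p = 0.0434). The Ak4 call was lost when WT replicate 1 or 2 or TRa_mKO replicate 2 was omitted (adjusted p = 0.0630, 0.0586 and 0.0961). The Slc2a3 call was lost on omitting each library in turn except WT replicate 1 (0.0542 to 0.126) and in limma-voom (0.0584). Both calls were lost without the pair of libraries with the highest erythroid sums (0.0796 for Ak4 and 0.0587 for Slc2a3). Slc16a3, the lactate exporter MCT4, whose reads may also be shared, measured 352 ± 40.8 and 236 ± 63.1 CPM and did not pass (adjusted p = 0.117). It was called without TRa_mKO replicate 1 (0.00906), with library size only (0.0447) and by DESeq2 (0.0146).

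**Figure D5:**
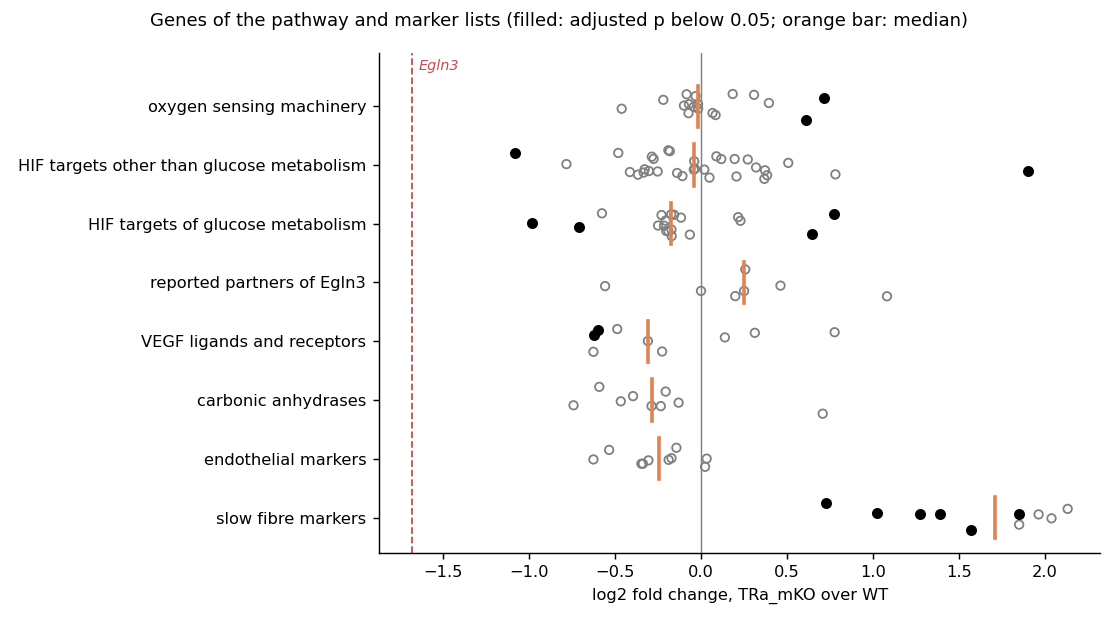
Log2 fold change of TRa_mKO over WT for each tested gene of the pathway lists and of 2 marker lists, with called genes filled and the median of each list as an orange bar. The dashed line marks Egln3 at -1.68, and called HIF targets lie on both sides of 0.

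Of 17 other genes of the sensing machinery, 2 rose and 0 fell (median -0.02), against 2.52% of all tested genes called higher. For the downward direction, 1 member had an unadjusted p under 0.05, and DESeq2 and limma-voom called 0. These counts have no share of all tested genes beside them, and nothing is read from them. Usp20, a deubiquitinase reported to stabilise HIF-1 alpha, rose from 14.5 ± 0.764 to 22.2 ± 2.12 CPM (log2 fold change 0.61, SE 0.11, edgeR adjusted p = 0.0118). P4htm, a membrane-bound prolyl hydroxylase related to the Egln family, rose from 4.60 ± 0.273 to 7.56 ± 0.513 CPM (log2 fold change 0.71, SE 0.15, edgeR adjusted p = 0.0264). Both had all TRa_mKO libraries above all WT libraries. The Usp20 call was lost on omitting WT replicate 3 or TRa_mKO replicate 2 (adjusted p = 0.0514 and 0.0668), and the P4htm call ended without any library but TRa_mKO replicate 3 (0.0510 to 0.120) and without the pair with the highest erythroid sums (0.101).

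Siah2, a ligase that degrades prolyl hydroxylases, measured 19.1 ± 1.49 CPM in WT and 23.6 ± 2.60 CPM in TRa_mKO (log2 fold change 0.31, edgeR adjusted p = 0.170). Hif1an, the asparaginyl hydroxylase of HIF, measured 96.4 ± 10.6 and 109.6 ± 13.5 CPM (adjusted p = 0.452). Os9 measured 33.6 ± 2.37 and 28.9 ± 2.17 CPM (adjusted p = 0.255), and Hsp90aa1, which was high in WT replicate 1, 82.7 ± 30.7 and 60.0 ± 6.22 CPM (adjusted p = 0.374).

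PHD3, the Egln3 protein, has reported partners besides HIF. EdgeR called 0 of the 7 listed, against 4.17% of all tested genes, and nothing is read from so short a list. At an unadjusted p under 0.05, 1 was higher and 1 lower, DESeq2 called both of these, and limma-voom called 0. Pkm, the muscle pyruvate kinase gene, measured 3440 ± 359 CPM in WT and 2336 ± 279 CPM in TRa_mKO, with no overlap (log2 fold change -0.56, SE 0.14, edgeR adjusted p = 0.0526). It crossed the threshold in 5 of the 15 other settings, among them without TRa_mKO replicate 1 (adjusted p = 0.0330). Myog, the gene of the myogenic factor myogenin, stood at 7.93, 7.75 and 8.32 CPM in WT, and TRa_mKO had 8.64, 18.0 and 24.1 CPM. TRa_mKO replicate 1 lay near WT and the other two well above it (edgeR adjusted p = 0.155, and 0.00159 without TRa_mKO replicate 1). Acacb, acetyl-CoA carboxylase 2, measured 199 ± 12.6 and 228 ± 6.64 CPM (adjusted p = 0.296), and Kif1b 537 ± 67.4 and 638 ± 44.5 CPM (adjusted p = 0.313).

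Besides Vegfa, 2 of 9 other VEGF ligands and receptors fell and 0 rose (median -0.31), against 1.65% of all tested genes called lower. For the upward direction, 1 member had an unadjusted p under 0.05, and DESeq2 and limma-voom called 0. Nothing is read from these counts, since no share of all tested genes stands beside them. Flt1, a VEGF receptor of endothelium, fell from 230 ± 22.4 to 152 ± 9.05 CPM (log2 fold change -0.60, SE 0.10, edgeR adjusted p = 0.0116). Flt4, the receptor for the lymphatic ligands, fell from 16.5 ± 1.73 to 10.7 ± 0.936 CPM (log2 fold change -0.62, SE 0.12, edgeR adjusted p = 0.0221). Kdr, the main VEGF receptor, measured 208 ± 46.6 and 135 ± 22.1 CPM and overlapped (adjusted p = 0.0948, and 0.0259 without WT replicate 3). DESeq2 called Kdr lower (adjusted p = 0.00620). Vegfd measured 2.92 ± 0.587 and 5.03 ± 0.528 CPM (adjusted p = 0.0645). Vegfc, whose reads may be shared with other features, and Nrp1 had an adjusted p of 0.179 and 0.252. The Flt1 call ended without TRa_mKO replicate 2 (edgeR adjusted p = 0.0607), and the Flt4 call without replicate 1 or 2 of either genotype (0.0507 to 0.100). Without the pair of libraries with the highest erythroid sums, 0 of the 9 were called lower (0.0641 for Flt1 and 0.0849 for Flt4). The endothelial marker sums given beside Epas1 overlapped between the genotypes, Kdr is one of those markers, and their part in the fall of these receptors was not tested.

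Beside Car9, 9 of 14 other carbonic anhydrases were tested and 0 were called by edgeR (median -0.29), against 4.17% of all tested genes. At an unadjusted p under 0.05, 1 was higher and 2 lower. DESeq2 called the same numbers, and limma-voom called 1 higher and 0 lower. Without a share of all tested genes for these counts, nothing is read from them. Car2, the fast cytosolic isoform, measured 9.33 ± 2.63 CPM in WT and 15.2 ± 0.746 CPM in TRa_mKO (edgeR adjusted p = 0.0568, and 0.0106 without WT replicate 1). Without the pair of libraries with the highest erythroid sums, Car2 was called higher (0.0299) and Car8 lower (0.0291). Car11 measured 7.63 ± 1.24 and 4.59 ± 0.925 CPM (adjusted p = 0.0635), Car8 48.0 ± 7.63 and 31.7 ± 8.67 CPM (adjusted p = 0.157, and 0.0140 without TRa_mKO replicate 3), and Car5b 3.26 ± 0.638 and 2.38 ± 0.837 CPM (adjusted p = 0.427).

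Transcripts that mark slow fibres also differed between the genotypes, and fibres themselves were not measured. Slow and oxidative fibre markers summed to 2361 to 4473 CPM in WT and 7230 to 9366 CPM in TRa_mKO, with 0 of 10 at 0 and 6 of 10 called higher, against 2.52% of all tested genes. General and fast muscle fibre markers summed to 117386 to 152236 CPM in WT and 142896 to 162978 CPM in TRa_mKO. Of these 8 markers edgeR called 0, against 4.17% of all tested genes, and DESeq2 called 2 higher. The 4.17% is from edgeR and is no measure for the DESeq2 count. A positive log2 fold change was found for 7 of 8 (median 0.23). For 4 of 8 all TRa_mKO libraries lay above, against 13.2% of the tested genes. The part of the fibre markers in the Egln3 difference was not tested. Markers of macrophages, fibroblasts and adipocytes had 0 called genes, against the same 4.17%, and their sums overlapped between the genotypes. The erythroid sum, in contrast, was high in 1 library of each genotype, and with both of these left out the Egln3 log2 fold change was -1.52.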

How the data were processed

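Polyadenylated RNA of 6 gastrocnemius muscles, 3 per genotype by the labels, was sequenced. The values deposited by the authors are estimated counts, 1 column per library in a single gene table whose header calls them read counts, with no normalization. The tools in the submitters' processing notes are Trimmomatic 0.39, featureCounts, FastQC 0.11.9 and MultiQC 1.12. They name the builds mm10, GRCm38.p6 and GRCm39 without a role. The libraries were strand-marked with dUTP per the labels. Aligner, annotation and counting strand: not given in the sources used here. Reads of a gene and of an antisense partner may therefore be mixed. Of 74693 features listed, 57659 had no values. Between 9.65% and 10% of a library's values were not whole, and what made them so is not given in the sources used here. Sharing of reads between features is assumed for a gene with such a value and was not tested. Value columns given to no sample numbered 0.

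Counts were rounded, filtered with filterByExpr (minimum count 10) and scaled by TMM. The test was edgeR's quasi-likelihood F test, two-sided (edgeR 4.0.16, R 4.3.3, robust, genotype as the single factor). Genes with a Benjamini-Hochberg adjusted p below 0.05 over all 13118 tested genes counted as called, and all adjusted p are from this test unless another tool is named. "Rose" and "fell" are used for called genes. Alternatives were DESeq2 1.42.0 (size factors, or its own test), limma-voom (limma 3.58.1), scaling by library size only, a filter of 1 CPM in 3 libraries or none, a block for the replicate number, leaving out each library, leaving out the 2 libraries highest in haemoglobin together, and leaving out genes with shared reads. The members, lists and alternatives were chosen with earlier results of these data known. Named are the members, the called genes of each pathway list with up to 4 others of smallest p, and the 5 genes nearest to Egln3 (mean log2 CPM of at least 1, prior count 2). Thra, Thrb and Hr were named in advance as a check of the labels. Kdr is in both the VEGF and the endothelial list.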

Additional observations from a re-analysis of the deposited data

How the results depend on the processing

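The log2 fold change of Egln3 lay between -1.77 and -1.52 under the 15 alternatives, with -1.77 to -1.59 when 1 library was left out. Genes higher in TRa_mKO numbered 331, but 213 with library size only (255 lower, so that the majority of calls turned downward), 216 with the replicate block and 177 without the haemoglobin-rich pair. Genes lower numbered 216, but 141 with the replicate block and 90 without the haemoglobin-rich pair. With 1 library left out, 135 to 331 were higher and 74 to 264 lower. DESeq2 called 763 genes. HIF targets counted 5 higher and 5 lower with DESeq2, 1 higher with the replicate block, and 1 to 4 higher and 2 to 4 lower with 1 library left out (1 higher without WT replicate 1 or 2, or TRa_mKO replicate 2). The cause was not tested. Same-numbered libraries did not deviate together (correlation -0.176, 0.000306 and -0.00568 across genes). The highest correlation was 0.195, for WT replicate 1 with TRa_mKO replicate 3. With 3 libraries per genotype these values cannot exclude a pairing of samples. The labels name no pairing, and the block is given only here. For the named genes, 706 of 774 values kept their side of the threshold, 42 lost the call, 26 gained it and 0 called values turned. Of the uncalled members, the sign turned under 7 of 15 alternatives for Egln2, 4 for Vegfa and 1 each for Hif1a and Hif3a. Depth limits Hif3a and Car9, with 14 to 46 counts per library.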
